A study of Mus musculus with 278 samples.

Results

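Heat shock proteins and related chaperones were examined as 10 named genes of a single-cell expression table that holds 14145 genes. The members were taken by gene symbol, 5 as stress-inducible (Hspa1a, Hspa1b, Dnajb1, Hspb1 and Hsp90aa1) and 5 as constitutive (Hspa8, Hsp90ab1, Hspa5, Hspa9 and Hspd1). All 10 were in the table, and all 10 were among the 12355 genes that passed the filter on low values (TPM, a length-corrected transcript level relative to all transcripts of a cell, over 1 in more than 5 cells).

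The cells were labelled as keratinocytes, the main cells of the epidermis, cultured from adult mouse dorsal skin. Every well was a co-culture of 9 parts wild type cells and 1 part K14ΔNβ-cateninER cells. The latter express, from the keratin 14 promoter, a stabilised beta-catenin that becomes active on addition of 4-hydroxy-tamoxifen (4-OHT). Treated wells received 200 nM 4-OHT for 24 h and untreated wells received DMSO, so that the comparison asks how cells respond to neighbours with active Wnt signalling. The labels give neither the strain nor the number of mice. The library names fall into series AG and GHA501A, each with both treatments, which gives 4 library sets: 66 AG untreated, 64 AG treated, 71 GHA501A untreated and 69 GHA501A treated cells. Another 8 AG cells were left out because name and treatment label disagreed. The transgenic cells were not told apart from the wild type cells here, so the sets may contain such cells.

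Chaperones bind unfolded or partly folded proteins and help them to fold, cross membranes or be degraded. When proteins unfold in the cytosol, the transcription factor HSF1 induces the stress-inducible genes, while their constitutive relatives serve the same compartments in unstressed cells. The endoplasmic reticulum and the mitochondria have chaperones of their own. In epidermis, the small heat shock protein Hspb1 is known to rise as keratinocytes differentiate.

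Promoter sequences are shown because they separate the members that carry a heat shock element from the one that carries an endoplasmic reticulum stress element. A RefSeq entry (GRCm38.p6) was found for 6 members, and the 250 bases before the start were searched. The heat shock element was searched as 2 units, GAANNTTC or TTCNNGAA, and as 3 units, in which a further GAA or TTC, in alternation, follows after 2 bases of any kind. Each 3-unit match also contains 2-unit matches, and both forms were read on both strands. Of 32536 promoter stretches of this length, 12.9% held the 2-unit form and 0.470% the 3-unit form. The endoplasmic reticulum stress element, CCAAT and CCACG separated by 9 bases of any kind, on either strand, was in 0.114%. Capitals mark the heat shock units, and below that the stress element of Hspa5.
Hspa1a, chr17:34972157-34972406, minus strand: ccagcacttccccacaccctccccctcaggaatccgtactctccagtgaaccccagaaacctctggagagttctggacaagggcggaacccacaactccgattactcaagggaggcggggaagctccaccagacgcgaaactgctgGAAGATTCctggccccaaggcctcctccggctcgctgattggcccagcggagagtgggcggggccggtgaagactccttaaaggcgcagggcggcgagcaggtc
Hspa1b, chr17:34959239-34959488, minus strand: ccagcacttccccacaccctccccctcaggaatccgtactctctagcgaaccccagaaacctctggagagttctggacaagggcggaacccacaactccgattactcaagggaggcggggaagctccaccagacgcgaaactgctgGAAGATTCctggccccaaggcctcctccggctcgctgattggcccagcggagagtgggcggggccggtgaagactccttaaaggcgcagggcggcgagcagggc
Hspb1, chr5:135887669-135887918, plus strand: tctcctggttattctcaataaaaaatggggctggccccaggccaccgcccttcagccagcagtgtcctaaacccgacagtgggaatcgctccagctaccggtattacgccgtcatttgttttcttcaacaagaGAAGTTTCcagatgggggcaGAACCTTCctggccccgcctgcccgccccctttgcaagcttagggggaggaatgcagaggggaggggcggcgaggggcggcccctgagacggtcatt
Hspd1, chr1:55088053-55088082, minus strand: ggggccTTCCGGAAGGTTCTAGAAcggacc
Hspa5, chr2:34772020-34772049, plus strand: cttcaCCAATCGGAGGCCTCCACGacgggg

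Hspa1a and Hspa1b, which encode the stress-inducible HSP70, had nearly the same stretch. They differed at 3 of 250 positions, C44T, T47C and T249G, counted from 1 at the 5′ end with the Hspa1a base first. Both held 1 element of 2 units at the same distance, ending 97 bases before the start. Hspb1 held 2 such elements, the nearer ending 90 bases before its start. Hspd1, which encodes the mitochondrial chaperonin HSP60, held overlapping units that make up 2 matches of the 3-unit form, before the second of its 2 annotated starts. All 250 bases before that start are annotated as exon, and the stretch before the first start held 0 heat shock elements. For Hspd1 and Hspa5 only 30 bases are shown. Hspa5 encodes BiP, the HSP70 of the endoplasmic reticulum, and its stretch held 1 stress element, 4 CCAAT boxes and 0 heat shock elements. Neither of the 2 entries of Dnajb1 held a heat shock element in these letters. A match is a description of the sequence and not evidence of binding.

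The cell type label was checked first, because the series differed in it. In AG the keratins Krt14 and Krt5 had medians of 4864 and 1596 TPM in untreated cells and 4997 and 1474 TPM in treated cells, while Col1a1, the main collagen of fibroblasts, had a median of 0. In GHA501A the Krt14 median was 2.25 TPM untreated and 10.1 TPM treated, against Col1a1 at 1123 and 909 TPM. Of 11 keratinocyte markers measured, 9 had a median of 0 in GHA501A untreated and 5 in GHA501A treated cells, counting Itgb4 and Cdh3, which had a median of 0 in both AG sets too. By Krt14 and Col1a1, most GHA501A cells go against their label. The 8 fibroblast markers measured summed to medians of 3411 and 2998 TPM in the GHA501A sets. In AG untreated cells the median sum was 85.5 TPM (0 to 1409), and in AG treated cells the sums ran from 0 to 3189 TPM. The median of Dcn was 0 in all 4 sets. Melanocyte (2 measured) and endothelial (1) markers had summed medians of at most 12.9 TPM. The immune marker Lyz2, the only one of 4 measured, had medians from 24.0 to 91.2 TPM. Its highest values were 2414 and 1191 TPM in AG untreated and treated cells, and 3071 and 54196 TPM in GHA501A. The 8 immediate early genes, which respond to handling, summed to medians of 1170 and 893 TPM in AG and 229.5 and 274 TPM in GHA501A. The median number of genes over TPM 1 per cell lay between 6008 and 6392 in the 4 sets, and 18 AG cells but 3 GHA501A cells had fewer than 5000.

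The series also differed in genes near 0. In AG, 0.841% of the 14145 genes stayed under 5 TPM in every cell although over 90% of GHA501A cells had them above TPM 1, and 0.120% (17 genes) did so the other way. Those near 0 in AG include genes that every cell is expected to use: Ctnnb1, Xpo1, Capzb and Ilk had medians of 0 in both AG sets, and of 61.4 and 50.1 (Ctnnb1) or 48.3 and 31.1 TPM (Xpo1) in GHA501A. Hspa5 is the one member among them. A difference between the series can therefore be one of cells, of culture or of quantification, which cannot be told apart in these 4 sets.

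**Figure D1:**
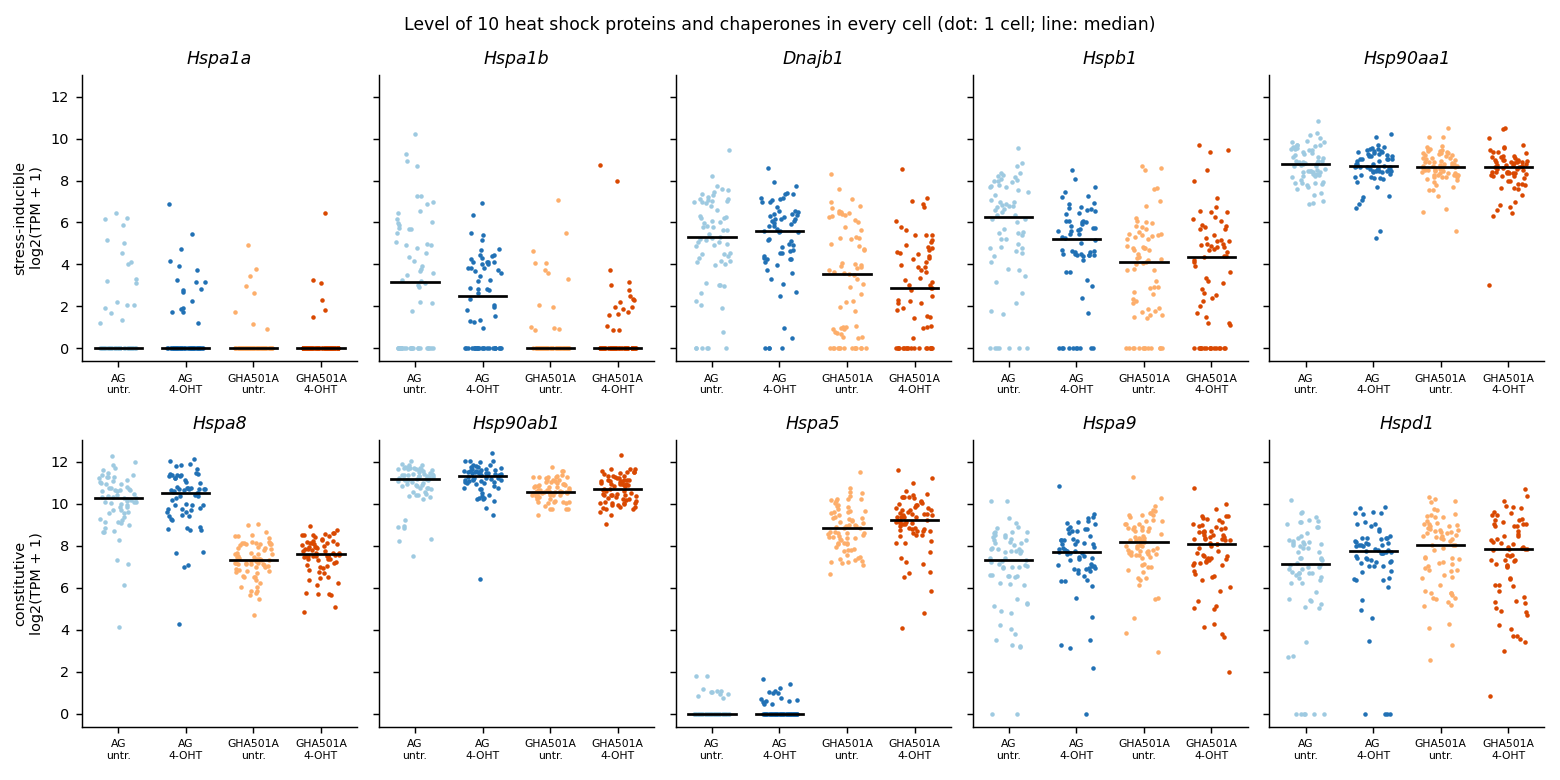
Each dot is 1 cell and each black line the median of a library set, on a log2(TPM + 1) axis shared by all 10 genes; the upper row holds the stress-inducible and the lower row the constitutive members. Hsp90aa1 and Hsp90ab1 form compact clouds at a like height in all 4 sets, Hspa5 lies at or near 0 in AG only, Hspa8 is higher in AG, and Hspa1a is at 0 in most cells.

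In every set the most abundant member was Hsp90ab1, the constitutive cytosolic HSP90. Its share of the summed TPM of the 10 members had a median between 45.6% and 49.3%. Summed, the members made up a median of 0.485% and 0.522% of all TPM in AG untreated and treated cells, and 0.354% and 0.375% in GHA501A. What filled the rest of the sum differed by series. Hspa8, the constitutive cytosolic HSP70, made up 27.2% and 27.7% in AG but 4.69% and 5.41% in GHA501A, whereas Hspa5 made up 0% in AG and 13.9% and 18.8% in GHA501A. By median TPM the order in AG untreated cells was Hsp90ab1, Hspa8, Hsp90aa1, Hspa9, Hspd1, Hspb1, Dnajb1 and Hspa1b, with Hspa1a and Hspa5 at 0. In GHA501A untreated cells it was Hsp90ab1, Hspa5, Hsp90aa1, Hspa9, Hspd1, Hspa8, Hspb1 and Dnajb1, with Hspa1a and Hspa1b at 0. The mean log2 levels of Hspa9 and Hspd1 were 7.11 ± 0.37 and 6.93 ± 0.44 in AG and 7.82 ± 0.27 and 7.48 ± 0.23 in GHA501A (SD, n = 2 sets). Their intervals of 1 SD overlapped in both series. Those of Hspb1 (5.07 ± 0.66) and Dnajb1 (5.03 ± 0.12) overlapped in AG, and those of Hspd1 and Hspa8 (7.40 ± 0.13) in GHA501A. The order of these neighbours was not resolved.

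The level of the stress-inducible members relative to the constitutive ones was taken per cell as the difference of their mean log2(TPM + 1). It averaged -2.26 and -2.93 in AG untreated and treated cells and -5.20 and -5.23 in GHA501A. AG was thus higher by 2.62 ± 0.45 (SD of the untreated and treated pair, n = 2). Hspa5 entered this value: without it the levels were -3.94, -4.69, -5.11 and -5.08, and the difference between series was 0.78 ± 0.55. Restricted to Krt14-high cells (defined below) it was 1.21 ± 0.83 with Hspa5 and -0.46 ± 0.96 without it. In these cells the direction thus did not hold without Hspa5, and there the spread exceeded the difference.

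Each member was then compared between the series and between the treatments in a single fit (limma on the mean log2(TPM + 1) of each of the 4 sets, two-sided, Benjamini-Hochberg adjustment over 12355 genes). A gene was called at an adjusted p under 0.05 and a log2 difference over 0.5. Between AG and GHA501A, 6 of the 10 members were called, 5 higher and 1 lower in AG, against 44.8% of all genes tested (23.4% higher and 21.4% lower). A call between the series was therefore common. Of the stress-inducible members 4 of 5 were called, all higher in AG, and the median difference was 1.38. Of the constitutive members 1 was higher and 1 lower, with a median of -0.55. The median over all genes was 0.11. With log2 of the mean TPM in place of the mean log2, the split of calls over all genes turned from 2889 higher and 2650 lower to 1333 higher and 2247 lower.

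Hspa1a was detected in few cells. Its median was 0 in all 4 sets and its highest value 87.1 TPM in AG untreated, 116.7 in AG treated, 29.8 in GHA501A untreated and 87.4 in GHA501A treated cells. It exceeded TPM 1 in 28.8% (95% Wilson interval 19.3 to 40.6) and 28.1% (18.6 to 40.1) of AG cells but in 9.86% (4.86 to 18.98) and 8.70% (4.05 to 17.7) of GHA501A cells. These intervals cover the counting of cells only. The sets overlap at 0, and the difference of mean log2 levels was 0.69 (SE 0.19, limma adjusted p = 0.0436). The call was lost with the 8 left-out cells included by name prefix (adjusted p = 0.0513), with cells of at least 5000 genes (0.0506) and among Krt14-high cells.

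Hspa1b ran from 0 to 1180 TPM with a median of 7.81 in AG untreated cells, and from 0 to 121.6 with a median of 4.64 in AG treated cells. In GHA501A both medians were 0, with highest values of 132.8 and 429.7 TPM. Most AG cells were above TPM 1 (59.1% and 62.5%), against 14.1% and 24.6% of the GHA501A cells, although single cells of both series reached over 100. AG was higher by 1.99 on the log2 scale (SE 0.29, adjusted p = 0.00672), 2.46 between the untreated and 1.52 between the treated sets. The call was lost on log2 of the mean TPM (adjusted p = 0.202) and among Krt14-high cells. Both HSP70 copies were above TPM 1 together in 13 and 16 AG cells, Hspa1b alone in 26 and 24, and Hspa1a alone in 6 and 2. In GHA501A the same counts were 5 and 5 together, 5 and 12 for Hspa1b alone, and 2 and 1 for Hspa1a alone.

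Dnajb1, an HSP40 that hands clients to HSP70 and is itself a target of HSF1, had medians of 38.1 TPM (0 to 696) and 47.4 TPM (0 to 389.7) in the AG sets. In GHA501A they were 10.7 TPM (0 to 312) and 6.32 TPM (0 to 376). The ranges overlapped while both AG medians lay above both GHA501A medians, and AG was higher by 1.99 (SE 0.23, adjusted p = 0.00347). The call was lost on log2 of the mean TPM (1.27, adjusted p = 0.0518) and among Krt14-high cells.

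Hspb1, the small heat shock protein HSP27, had medians of 76.5 TPM (0 to 760.4) and 36.05 TPM (0 to 361) in AG untreated and treated cells, and of 16.5 TPM (0 to 414) and 19.3 TPM (0 to 839) in GHA501A. The highest value of all was in GHA501A treated cells although the medians there were low. AG was higher by 1.38 (SE 0.30, adjusted p = 0.0206). This call did not hold in 3 alternatives: the adjusted p was 0.0598 with no filter on low values and 0.406 on log2 of the mean TPM, and the sign turned among Krt14-high cells.

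Hsp90aa1, the stress-inducible cytosolic HSP90, was over TPM 1 in all 270 cells. Its medians were 446 TPM (117.8 to 1846), 407 TPM (37.7 to 1209), 405 TPM (46.8 to 1447) and 397 TPM (7.16 to 1437) in AG untreated, AG treated, GHA501A untreated and GHA501A treated cells. The sets overlapped almost wholly, and the difference between series was 0.14 (SE 0.19, adjusted p = 0.584). Hsp90aa1 was thus abundant in all sets and was the one member taken as stress-inducible that was not called.

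Hspa8 had medians of 1233 TPM (16.7 to 4979) and 1491 TPM (18.5 to 4567) in the AG sets but 158.3 TPM (25.3 to 531) and 191.2 TPM (27.9 to 492) in GHA501A. No GHA501A cell exceeded 531 TPM, and the lower quartile of AG cells was 747 and 779 TPM. The difference of 2.73 (SE 0.19, adjusted p = 9.13e-04) corresponds to 6.65-fold on the log2(TPM + 1) scale. It was nearly the same between the untreated sets (2.76) as between the treated sets (2.70). Gapdh, a glycolytic enzyme, moved the same way, with medians of 905 and 1182 TPM in AG and 147 and 189.6 TPM in GHA501A, whereas the actin gene Actb had medians of 12230 and 8774 TPM in AG and 12494 and 7811 TPM in GHA501A.

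Hspa5 was above 0 in 26 of 130 AG cells, was listed at 0 in the others, and reached at most 2.41 TPM there, whereas no GHA501A cell was below 15.7 TPM. The GHA501A medians were 459 TPM (100.6 to 2925) untreated and 603 TPM (15.7 to 3121) treated. The series did not overlap in this gene (adjusted p = 2.39e-04). Because genes such as Ctnnb1 and Xpo1 were near 0 in the same AG cells, no fold is given. Some other chaperones of the same compartment were present in AG. Hsp90b1 had medians of 519 and 463 TPM against 567 and 603 TPM in GHA501A. Calr had 309 and 308 TPM against 395 and 421 TPM, and was called lower in AG (-0.70, limma adjusted p = 0.0433). Others were low in AG: Sdf2l1 had a median of 0 in both sets, and Dnajb11 had medians of 5.68 and 3.78 TPM. Of 19 chaperones and regulators of this compartment, 2 were called higher and 10 lower in AG, against 23.4% and 21.4% of all genes tested. Among Krt14-high cells 0 of the 19 were called, against 5.50% of all genes, and their median difference was -0.04.

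The remaining constitutive members were not called between the series. Hsp90ab1 had medians of 2361.5 TPM (178.9 to 4255), 2548 TPM (84.7 to 5538), 1536 TPM (698 to 3451) and 1698 TPM (519 to 5110), a difference of 0.37 (SE 0.19, adjusted p = 0.188). Hspa9, the mitochondrial HSP70 that pulls proteins through the inner membrane, had medians of 158.3, 211, 287 and 273 TPM and a difference of -0.71 (SE 0.29, adjusted p = 0.110). Hspd1 had medians of 139.01, 213, 266 and 227 TPM and a difference of -0.55 (SE 0.29, adjusted p = 0.195). For both mitochondrial members the gap lay between the untreated sets (-1.16 and -1.03) more than between the treated sets (-0.25 and -0.08), a change that was not tested.

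**Figure D2:**
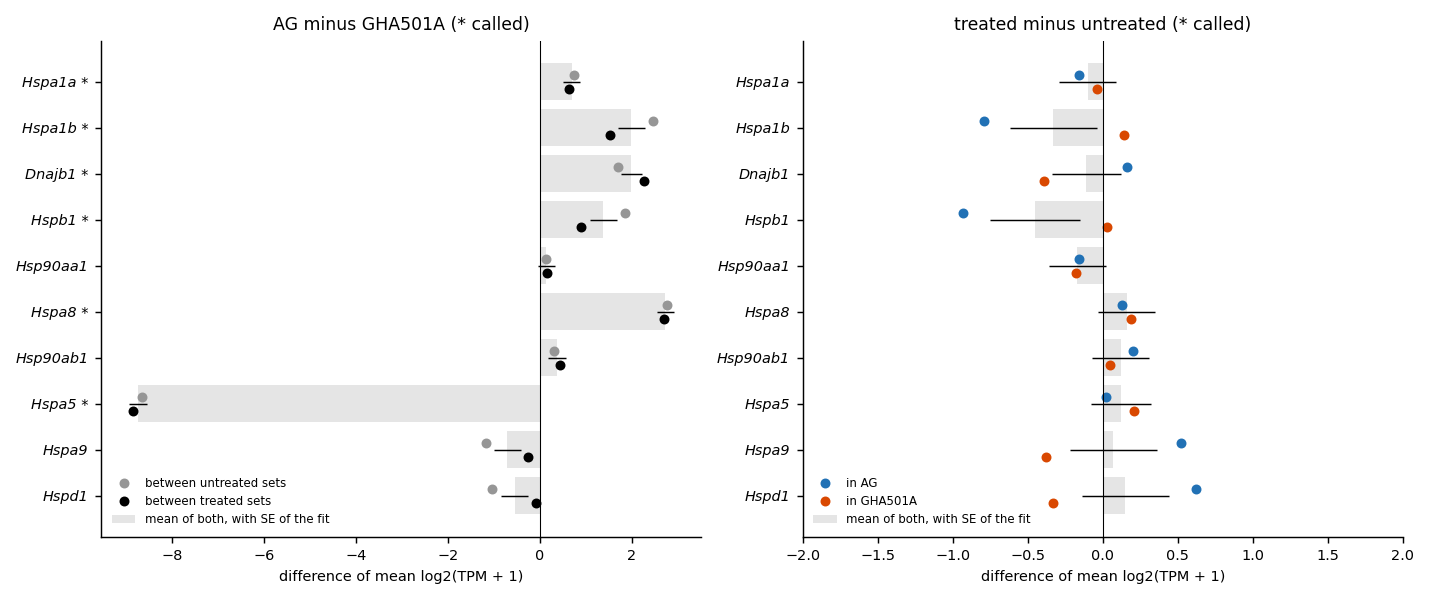
Differences of mean log2(TPM + 1) for the 10 members, between series (left) and between treatments (right); dots are the 2 separate differences, grey bars their mean, and lines the SE of the limma fit. Hspa8 shows nearly the same difference in both pairs (2.76 and 2.70), Hspa5 is listed at or near 0 in AG, and in the right panel the dots of Hspb1, Hspa1b, Dnajb1, Hspa9 and Hspd1 fall on both sides of 0.

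Treatment with 4-OHT gave no call. Of 12355 genes 0 passed (0%), while 393 (3.18%) had an unadjusted limma p under 0.05, and with a mean-variance trend 5 genes passed. Every member had an adjusted p of 1.000, which with 1 residual degree of freedom does not show that treatment left the members unchanged. Of the 10 members 5 had a positive mean difference, all of them constitutive, and the 5 stress-inducible members were negative, between -0.45 (Hspb1, SE 0.30) and -0.10 (Hspa1a, SE 0.19). This split did not hold among Krt14-high cells, where Hspa5 (-0.11), Hspa9 (-0.26) and Hspd1 (-0.89, SE 0.90) were negative as well. The median was -0.17 over the stress-inducible and 0.12 over the constitutive members, against -0.01 over all genes. The sign was the same in both series for 5 members, Hspa8 (0.13 in AG and 0.19 in GHA501A), Hsp90ab1 (0.20 and 0.05), Hsp90aa1 (-0.16 and -0.18), Hspa1a (-0.16 and -0.04) and Hspa5 (0.02 and 0.21).

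Several members had a treatment difference over 0.5 in size in AG. Hspb1 had a treated minus untreated difference of -0.93 in AG and 0.03 in GHA501A, and Hspa1b of -0.79 and 0.14. Cells with Hspb1 over 100 TPM numbered 29 of 66 in AG untreated and 11 of 64 in AG treated cells, against 7 of 71 and 7 of 69 in GHA501A. Hspd1 and Hspa9 had differences of 0.62 and 0.52 in AG and -0.33 and -0.38 in GHA501A. With 1 set for each treatment in a series, these values have no replicate. The summed immediate early genes ran from 110.6 to 9217 TPM in AG untreated and from 104.9 to 5776 TPM in AG treated cells. Of these 8 genes 6 had a lower median in AG treated cells. The gaps were wide for Jun (166.5 and 104.3 TPM), Atf3 (62.1 and 7.84 TPM) and Ier2 (92.1 and 39.4 TPM). They were narrow for Egr1 (148.4 and 145.1 TPM), Junb and Btg2, while Fos (269.6 and 292.4 TPM) and Fosb had a higher median. The part of these 8 genes in the result was not tested.

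High Hspa1b marked a small group of cells. Above 100 TPM were 8 AG untreated cells, 1 AG treated cell, 1 GHA501A untreated and 2 GHA501A treated cells. In the 8 AG untreated cells the medians were 105.9 TPM for Dnajb1, 26.5 TPM for Hspb1 and 1534 TPM for Hsp90ab1, against 36.6, 82.02 and 2528 TPM in the other cells of the set. In that set the median of Dnajb1 was thus higher beside high Hspa1b, and those of Hspb1 and Hsp90ab1 lower, which was not tested. The other sets, with 1 or 2 such cells each, shared this pattern only in part. Hspb1 was higher beside high Hspa1b in all 3. It had 66.8 against 34.6 TPM in AG treated, 28.4 against 16.03 TPM in GHA501A untreated and 74.2 against 17.6 TPM in GHA501A treated cells. Dnajb1 was lower in AG treated cells (18.4 against 47.9 TPM) and GHA501A untreated cells (0 against 10.8 TPM). In GHA501A treated cells it was higher (75.2 against 6.29 TPM). Hsp90ab1 was higher in both treated sets and lower in GHA501A untreated cells (1070 against 1538 TPM). The 8 AG untreated cells had a median of 5434 genes over TPM 1 against 6284 in the others, and 3 of the 8 were among the 11 cells of the set with fewer than 5000. The part of this lower gene number in the difference was not tested.

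Since GHA501A holds cells of both kinds, the members were compared within it. Krt14-high cells had Krt14 over 100 TPM and Col1a1 at or below 100 TPM (8 untreated and 10 treated cells), and Col1a1-high cells the reverse (60 and 49 cells). Another 12 GHA501A cells were above 100 TPM for both genes and 1 for neither, and 15 had one of the genes between 50 and 200 TPM, near the limit. The classes rest on these genes alone, yet their other markers differed as well: Krt5 had medians of 702 and 1858 TPM in Krt14-high cells and 0 and 2.27 TPM in Col1a1-high cells. Limma called 0 of 12355 genes (0%), while 1833 (14.8%) had an unadjusted p under 0.05. Without the treatment label as a block, 0 were called and 2288 had an unadjusted p under 0.05.

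Hspb1 had the widest gap of any member. It was above TPM 1 in all 18 Krt14-high cells, with medians of 87.2 TPM (25.035 to 414) and 163.8 TPM (54.5 to 839), against 10.2 TPM (0 to 359.9) and 6.04 TPM (0 to 104.3) in Col1a1-high cells. The ranges overlapped, and the difference was 4.06 on the log2 scale (SE 0.49, unadjusted p = 0.0120, adjusted p = 0.306), 3.39 without and 4.73 with 4-OHT. Hspa1b was above TPM 1 in 5 of 8 and 6 of 10 Krt14-high cells but in 5 of 60 and 7 of 49 Col1a1-high cells, a difference of 1.76 (SE 0.18, adjusted p = 0.306). Dnajb1 differed by 0.95 (SE 0.16, adjusted p = 0.306). Hspa5 went the other way, with medians of 235 and 314 TPM in Krt14-high and 493 and 719 TPM in Col1a1-high cells and a difference of -0.98 (SE 0.26, adjusted p = 0.345). Hsp90aa1, Hspa8 and Hsp90ab1 differed by 0.46, 0.46 and 0.40, with SEs of 0.15, 0.15 and 0.17.

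Comparing only Krt14-high cells between the series (64 and 59 AG cells, 8 and 10 GHA501A cells) left 680 genes called, 5.50% of those tested (1.41% higher and 4.10% lower), and 1 member, Hspa5 (adjusted p = 0.0343). Hspa8 differed by 2.33 (SE 0.31) and was no longer called (adjusted p = 0.0556), and the GHA501A medians in these cells were 273 TPM (25.3 to 531) and 253 TPM (101.65 to 424). Dnajb1 had a difference of 1.27 (SE 0.37, adjusted p = 0.153). Hspa1b came to 0.48 (SE 0.34) and Hspa1a to 0.22 (SE 0.36), with adjusted p of 0.448 and 0.762. Hspb1 turned to -1.98 (SE 0.62, adjusted p = 0.164), that is, to higher values in GHA501A.

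**Figure D3:**
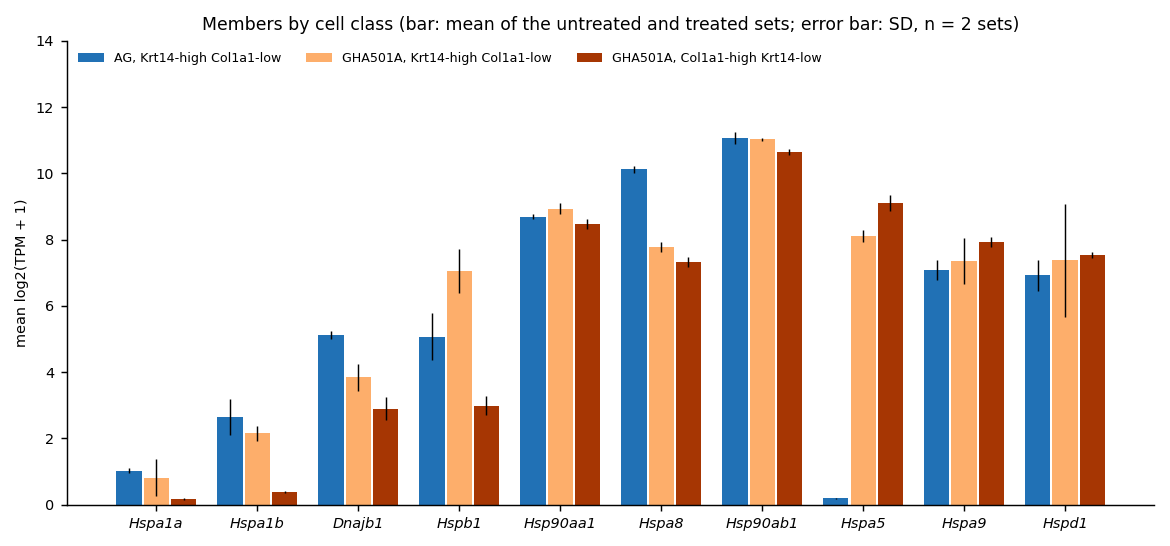
Bars are mean log2(TPM + 1) over the untreated and treated sets and error bars the SD (n = 2 sets) in Krt14-high cells of AG, Krt14-high cells of GHA501A and Col1a1-high cells of GHA501A. Hspb1 is at 5.07, 7.05 and 2.99, Hspa1b at 2.64, 2.15 and 0.39, and Hspa8 at 10.12, 7.79 and 7.33.

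Across the cells of a set, few pairs of members were correlated at 0.2 or more in every set. Of 45 pairs of members 15 had a positive Spearman rho in all 4 sets and 0 a negative rho in all 4, and the mean rho was 0.10. The 2 pairs at that level were Hspa9 with Hspd1 (0.29 to 0.38), both of the mitochondrial matrix, and Hsp90ab1 with Hspd1 (0.21 to 0.39). Hspa1a and Hspa1b had 0.11 in AG untreated cells and 0.41 to 0.5 in the other sets. Hsp90aa1 and Hsp90ab1 ran from -0.07 to 0.35. Hspa1b and Hspb1 ranged from -0.32 in AG untreated to 0.31 in GHA501A untreated cells. These values describe cells that share a library set and differ in the number of genes detected, with which Hspd1 correlated at 0.17 to 0.53 and Hspa8 at 0.14 to 0.59.

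**Figure D4:**
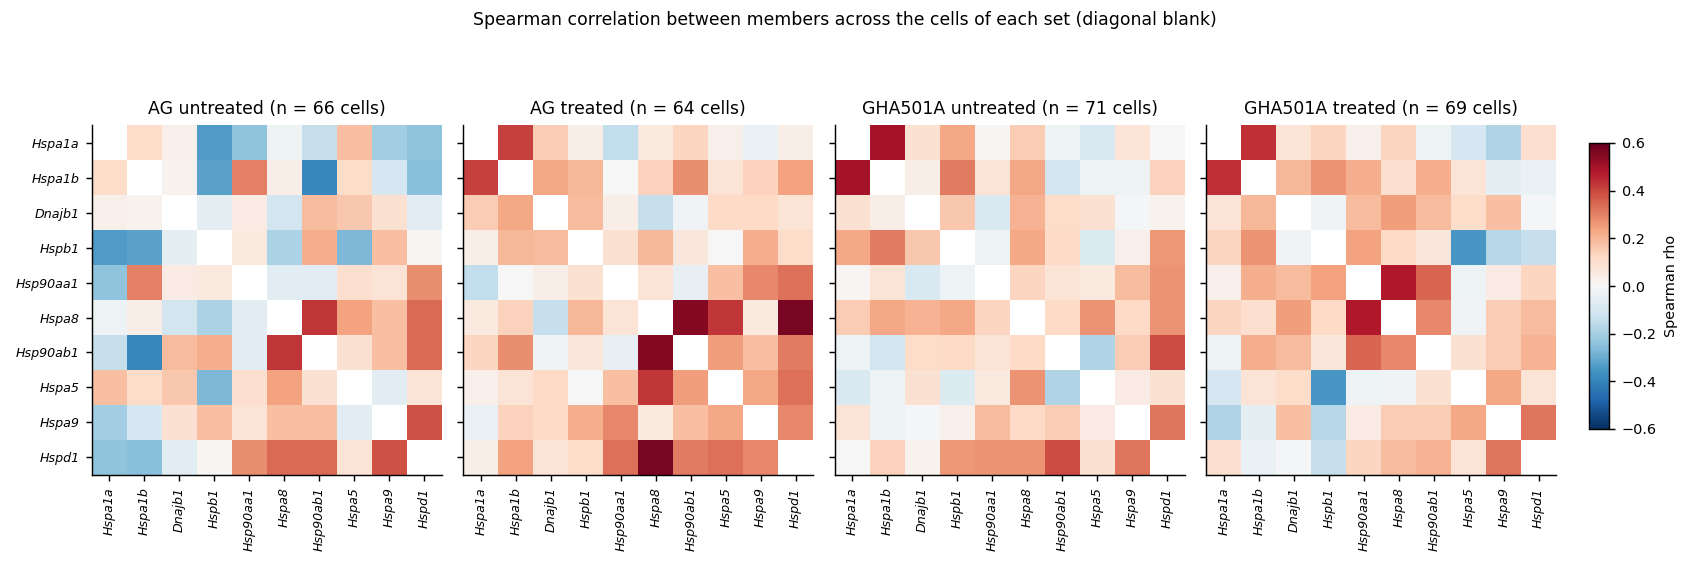
Spearman rho between members across the cells of each library set, from blue (negative) to red (positive). Hspa8 is warmest with Hspd1 (0.57) and with Hsp90ab1 (0.55) in AG treated cells. Hsp90ab1 with Hspd1 is at 0.31 there and at 0.39 in GHA501A untreated cells. The cold squares of AG untreated join Hspa1b with Hsp90ab1 (-0.39) and Hspa1a with Hspb1 (-0.34).

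The genes most like each member in all 4 sets were taken from 5990 genes that were over TPM 1 in at least 50% of cells, ranked by the lowest of the 4 rho values. For Hspb1 they were Aqp3, Krt17, Krt16, Serpinb5 and Perp, with lowest rho from 0.30 to 0.23, all known from epithelial cells. For Hsp90aa1 they were Pola2, Mki67, Mcm7, Tk1 and Mcm4 (0.32 to 0.29), which belong to DNA replication and proliferation. For Hspd1 they were Nme1, Nhp2, Hspe1, Cycs and Cct6a (0.45 to 0.38). Hspe1 is the co-chaperonin of HSP60, and it shares a divergent promoter and a stretch of exon with Hspd1. For Hspa8 they were Snu13, Lsm3, Ranbp1, Nme1 and Nhp2 (0.38 to 0.35), and for Hsp90ab1 Nme1, Rpl21, Dctpp1, Rpl29 and Banf1 (0.29 to 0.24). For Hspa9 the first were Pole2 (0.30) and Hspd1 (0.29). The values of Dnajb1, with Pias1 at 0.20, were weaker. Hspa5 exceeded TPM 1 in 7 of 66 and 5 of 64 AG cells, so no genes are named for it, and Hspa1a and Hspa1b were over TPM 1 in too few cells to be ranked.

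Among other chaperone genes, the 37 tested co-chaperones and heat shock factors had 4 called higher and 10 called lower in AG than GHA501A, with a median of 0.04. Over all genes 23.4% were called higher and 21.4% lower, against which this and the following lists are to be read. The most extreme were lower in AG: St13, an HSP70 cofactor, had medians of 48.4 and 65.3 TPM in AG and 2041 and 1560 TPM in GHA501A, and Dnaja1, an HSP40, had 1.60 and 1.76 TPM against 98.7 and 88.6 TPM. Hspa2, an HSP70 best known from testis, was listed at a median of 0 in AG and had medians of 64.025 and 31.9 TPM in GHA501A. In AG, Dnaja1 and Hspa2 reached at most 14.4 and 10.0 TPM. As for Hspa5, cells, culture and quantification cannot be told apart for genes this low in AG. Hsf1 itself differed by 0.36 (adjusted p = 0.460), Hsph1, an HSP110, by 0.07 (0.801), and Stip1, which joins HSP70 to HSP90, by 0.18 (0.764). Of 6 small heat shock proteins Hspb7 was called higher (0.79) and Hspb11 lower (-1.36), and Cryab differed by 1.17 (adjusted p = 0.112).

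Of 19 chaperones and regulators of the endoplasmic reticulum, 2 were called higher and 10 lower in AG, with a median of -0.81 against 0.11 for all genes, of which 23.4% were called higher and 21.4% lower. The largest called differences were Sdf2l1 at -2.52 (SE 0.26), Creld2 at -2.44 (SE 0.20) and Pdia6, a disulphide isomerase, at -1.91 (SE 0.22). Herpud1 (1.27) and Dnajb9 (1.66) were called higher, and Hsp90b1 differed by -0.20 (adjusted p = 0.488). Among Krt14-high cells 0 of these 19 were called (5.50% of all genes were) and the median was -0.04. Of 9 mitochondrial chaperones and proteases 2 were called higher, Grpel2 (1.55) and Lonp1 (0.92), and 3 lower, Clpx, Dnajc19 (-2.04) and Hspe1 (-1.02). Clpx was listed at a median of 0 in both AG sets. Of 8 subunits of the cytosolic chaperonin TRiC 1 was called, Cct6a (-1.08), and 7 of 8 differences were negative. Cct2 had medians from 28801 to 35111 TPM, far above its partners in the same complex. Among Krt14-high cells 3 of 37 co-chaperones and heat shock factors were called lower, with a list median of -0.42. Of the mitochondrial genes 2 of 9 were called lower there, with a median of -0.90. Of TRiC and the small heat shock proteins 0 were called, with medians of -0.50 and 0.34. Over all genes 1.41% were called higher and 4.10% lower in these cells, with a median of 0.08. In treated against untreated cells 0 genes of these lists were called.

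**Figure D5:**
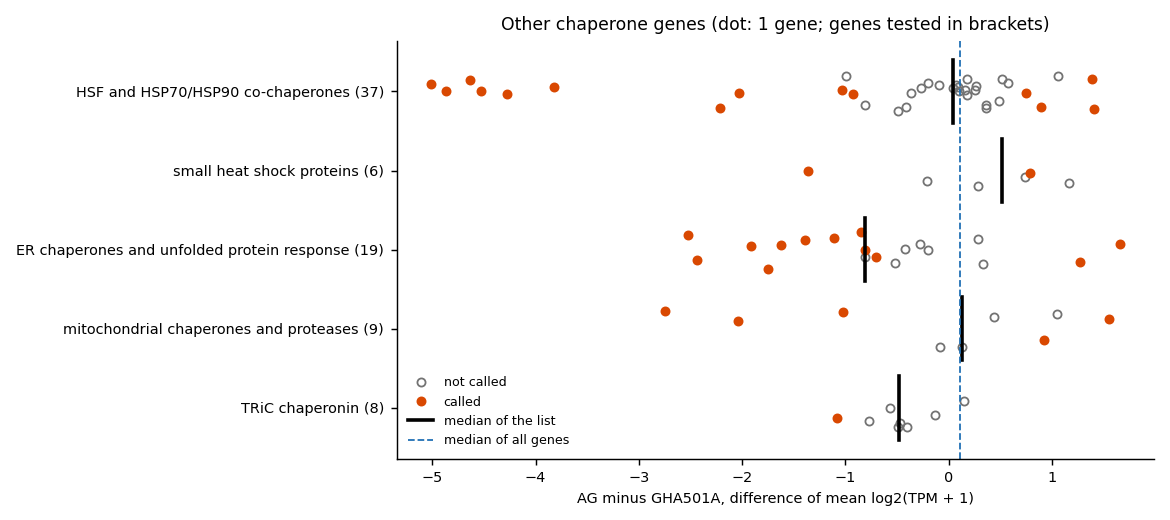
Differences of mean log2(TPM + 1) between AG and GHA501A for 79 further chaperone genes in 5 lists; filled dots were called, black lines are list medians and the dashed line is the median of all genes (0.11). The reticulum list lies left of it with a median of -0.81, and the co-chaperone list has its median near it but a tail down to -5.01.

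How far each member can be told from related genes was read from its longest coding transcript (GENCODE M21, GRCm38) in windows of 50 bases. Reads that fit several places were discarded by the authors, which can lower the value of genes that share sequence. Hspa1a (chr17:34969190-34972156) shared 66.3% of its windows with other genes and Hspa1b (chr17:34956436-34959238) 62.3%, mostly with each other, and both have 1 exon. Hspa8 (chr9:40800984-40810087) shared 74.8% with 13 genes, Hsp90aa1 (chr12:110690605-110702728) 58.5%, Hspb1 (chr5:135887919-135889563) 51.6% and Hspd1 (chr1:55077835-55088243) 44.8%, largely with pseudogenes. The levels of these 6 members are uncertain to that extent. Hsp90ab1 (chr17:45567775-45573271) and Hspa9 shared 4.49% and 4.10%, Dnajb1 (chr8:83608193-83612653) 0.441% and Hspa5 (chr2:34771970-34777547) 0%. Exons of Gm20481 overlap 19.009% of the exon bases of Hspa1a, small nucleolar RNA genes 6.09% of those of Hspa8 and Hspe1 4.24% of those of Hspd1.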

How the data were processed

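Single cells were captured on a microfluidic chip, and full-length cDNA was sequenced as paired 100 bp reads. According to the study's methods, TopHat placed the reads on GRCm38, reads with several placements were dropped, and featureCounts assigned the rest to genes. The authors deposited the result as TPM, which add up to 1000000 in each cell. The depth of a single cell is therefore not in the table, and low values have no stated precision. Of 294 cells in the table, 16 matched no label and were not used.

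Here log2(TPM + 1) was averaged over the cells of each of 4 library sets, since cells of a culture are not replicates. Limma 3.58.1 (R 4.3.3) was fitted with series and treatment as terms, which leaves 1 residual degree of freedom. Nothing in the labels says that the sets came from separate animals. In the fit over the 4 sets, p-values rest on how far the treatment difference disagreed between the series. Limma moderates that disagreement over all genes, and it may be technical. No spread between replicate sets of the same series and treatment enters the p-values. The remaining steps ran in Python 3.11.15 with scipy 1.17.1, pandas 2.3.3 and numpy 2.4.6.

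Members, lists and classes were chosen with earlier results of these data known. Named beyond the members are up to 3 called genes of largest difference and up to 3 others per list. Hspa13, Bag1, Hspb3, Cryaa, Canx, Serpinh1, Fkbp10 and Cct3 were not analysed here. The alternatives were another pseudocount, log2 of the mean TPM, other filters, the 8 cells included, cells with at least 5000 genes, no block, a variance trend, other class limits and each set left out. Leaving out genes near 0 in 1 series and leaving Hspa5 out of the constitutive mean, also within Krt14-high cells, were chosen after seeing the data. The treatment comparison in Krt14-high cells alone was added then too.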

Additional observations from a re-analysis of the deposited data

Results flagged for a closer look

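For 5 members the treated minus untreated difference had opposite signs in the 2 series. The AG difference less the GHA501A difference of mean log2(TPM + 1) was -0.94 for Hspa1b (-0.79 and 0.14), -0.96 for Hspb1 (-0.93 and 0.03), 0.55 for Dnajb1 (0.16 and -0.39), 0.91 for Hspa9 (0.52 and -0.38) and 0.95 for Hspd1 (0.62 and -0.33). Each series has 1 treated and 1 untreated set, so the difference between series was not tested.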

How the results depend on the processing

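Between AG and GHA501A the number of genes called was 5539, but 3580 on log2 of the mean TPM, 680 with Krt14-high cells only, and 3195 to 3383 when each set was left out in turn. Because 3 sets leave no residual degree of freedom beside both terms, those counts come from a fit without treatment, in which a series with 1 set is assumed to vary like the other, so they change 2 choices at once and compare with the 5841 without the block given below. The higher stress minus constitutive level of AG (2.62) was 3.81 with a pseudocount of 0.1, 1.21 with Krt14-high cells only, 0.78 without Hspa5 in the constitutive mean and -0.46 with both. Between the untreated sets alone it was 2.94, and between the treated sets alone 2.30. Hspb1 turned from 1.38 to -1.98 with Krt14-high cells only, and the cause of these changes was not tested. The calls lost for Hspa1a, Hspa1b and Dnajb1 stand beside their values. For treatment, the count of 0 was 5 with a mean-variance trend.

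The replicate numbers in the labels number cells and pair no cultures, so the block was the other factor of the design. With no replicate block the counts were 5841 between series, 0 between treatments and 0 between the classes within GHA501A, and no member's call changed.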
